A study of Homo sapiens with 12 samples.

Results

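The genes described here are 41 neuroendocrine and secretory granule genes, looked up by symbol among the 60623 genes of the count table. They are transcription factors of endocrine and neuronal cells, cargo and enzymes of secretory granules, enzymes of transmitter synthesis, proteins of regulated exocytosis, and neuronal cytoskeletal, RNA-binding and surface proteins. All 41 were found. Of these, 30 passed the filter on low counts and were tested, and 11 did not pass: NEUROG3, INSM1, NKX2-2, PAX4, ST18, SCG2, PCSK1, SYT4, STMN2, NEFM and ELAVL4. A gene can pass that filter through 1 group alone, so counts over the 30 genes describe the genes that passed and not the list.

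Neuroendocrine cells of the gut store peptide hormones and amines in dense-core granules and release them when calcium rises. Granins such as CHGA and CHGB pack the granule, the proteases PCSK1 and PCSK2 and the carboxypeptidase CPE cut prohormones into their active forms, and a fusion complex of SNAP25, syntaxin and VAMP2, triggered by synaptotagmins, joins the granule to the plasma membrane. During development NEUROG3 starts the endocrine programme in gut progenitors, and NEUROD1, INSM1, NKX2-2, PAX4, PAX6, ISL1 and RFX6 act after it. Many of the same genes are used by neurons, and the repressor REST is known for silencing a large set of them in other tissues.

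The 12 libraries hold bulk RNA of 2 established colorectal cancer lines of human origin. COLO320DM is a line from a colon carcinoma that is commonly described as having neuroendocrine properties, and SW480 is an epithelial line from a primary colon adenocarcinoma. Each line received either the empty vector pCMV6-Entry or pCMV6-HKDC1, which carries the hexokinase family gene HKDC1 under a CMV promoter, as 10 µg of plasmid by lipid transfection for 24 h, with 3 libraries in each of the 4 groups. The labels give no parental or untransfected cells and do not say whether the replicates came from separate cultures. The p-values therefore reflect only how much these samples vary, which may be technical. Because the samples are bulk RNA, fewer cells that express a gene and less RNA per cell cannot be told apart.

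Library totals ranged from 33790733 to 45451279 counts. HKDC1 itself had 0 to 1 counts in COLO320DM and 1275 to 1549 in SW480 with empty vector, against 269799 to 333102 and 477515 to 499910 with the HKDC1 plasmid. Within each line, the replicate 1 libraries stood apart from replicates 2 and 3, so the results on which this bears are given with and without them. Of 12 colon epithelium markers, 11 were tested, and 1 was higher and 8 lower in COLO320DM with empty vector (edgeR, adjusted p under 0.05), beside 34.3% and 37.3% of all genes. CDX2, the intestinal transcription factor, stood at 1451 ± 68.2 CPM (counts scaled to library size; SD, n = 3) in COLO320DM and 13.3 ± 8.06 in SW480, while the epithelial adhesion gene EPCAM stood at 1.81 ± 0.417 and 517 ± 50. The keratin KRT19 had 1 to 6 counts per library in COLO320DM with empty vector, and the cadherin gene CDH1 had 0 to 4.

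Neither line expressed the list as a whole. Of its transcription factors, NEUROG3, NKX2-2, PAX4, ST18 and INSM1 were at or near 0 in all 12 libraries. Others were expressed, such as PAX6 with 330 to 732 counts in SW480 and ISL1 with 53 to 144 counts over both lines. NEUROG3 had 0 to 2 counts, NKX2-2 had 0 to 3, PAX4 had 0 to 1 and ST18, a zinc finger factor, had 0 to 4. INSM1 had 0 counts in the 6 COLO320DM libraries and 1 to 9 in the 6 SW480 libraries. The granule markers CHGA and SCG2 reached at most 23 and 7 counts. NEFM, a neurofilament subunit, had 0 counts throughout. A set of 12 gut hormone genes summed to 0.429–0.623 CPM per library over the 4 groups, none of them passed the filter, and MLN was at 0 in every library. Of 6 enterochromaffin markers, SLC18A1 and FEV were at 0 in both lines. With empty vector, the summed level of the 6 was 2.59–3.65 CPM in COLO320DM and 5.61–6.82 CPM in SW480. Each sum came mostly from 1 gene, LMX1A with a mean of 2.38 CPM in COLO320DM and DDC with 5.63 CPM in SW480. TPH1 was at 0.307 and 0.330 CPM and CHGA at 0.338 and 0.108 CPM, so the sums do not rank the lines. In all, 22 of the 41 genes reached a mean of 1 CPM in at least 1 group and 12 reached 10 CPM, while 9 stayed under 10 counts in every library.

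**Figure D1:**
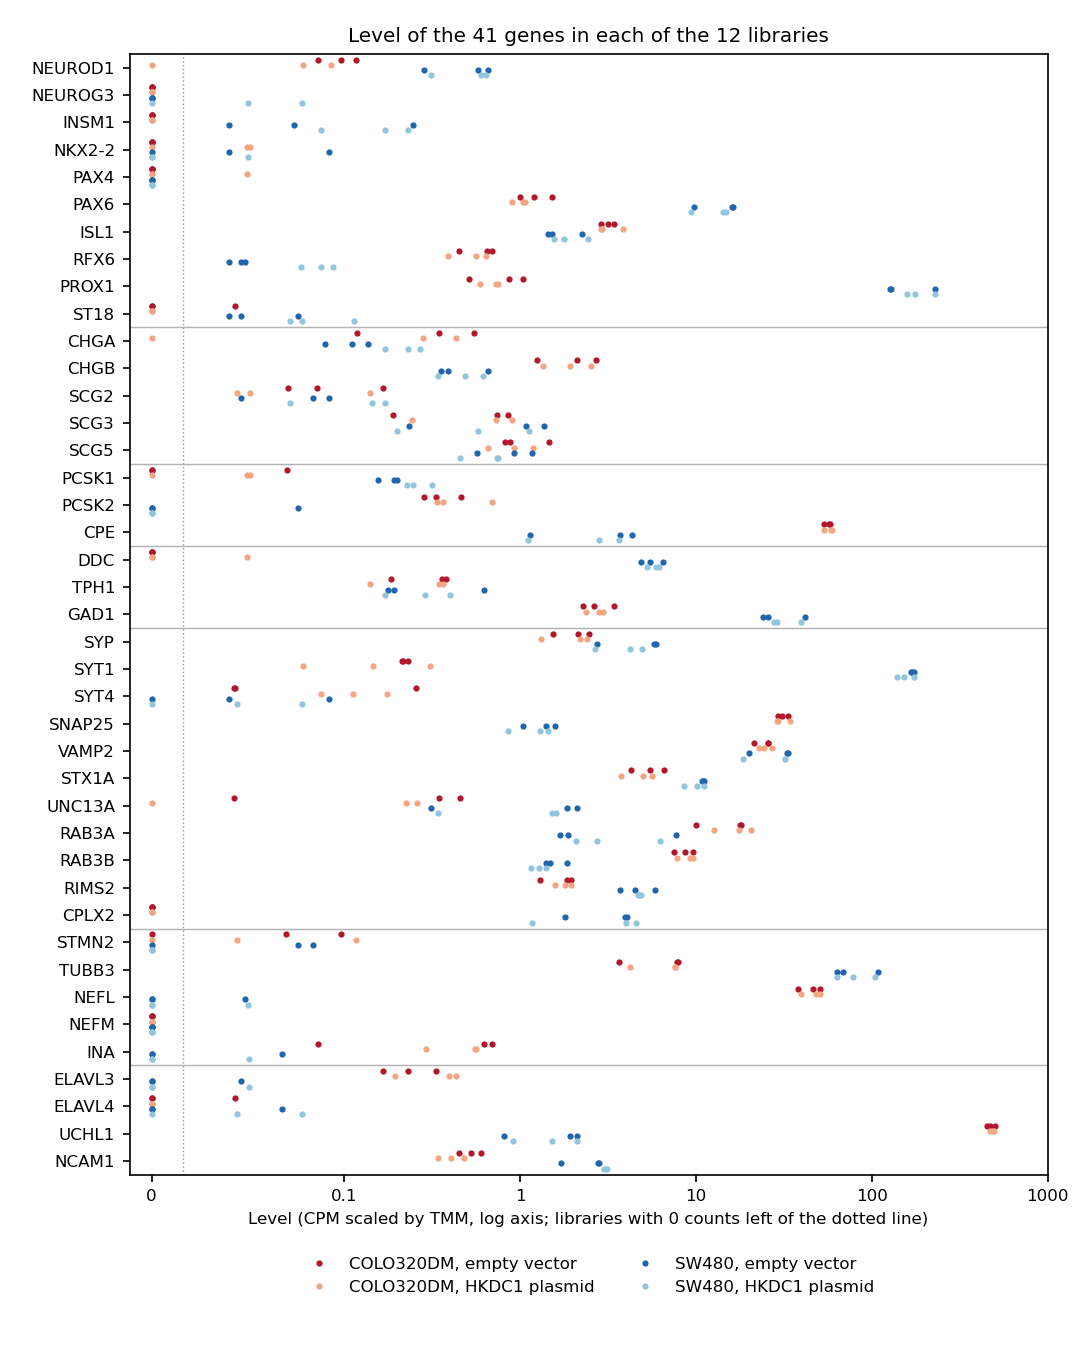
Level of each of the 41 genes in each of the 12 libraries, in CPM on a log axis, with libraries at 0 counts placed left of the dotted line and grey lines separating the roles of the genes. UCHL1, CPE, SNAP25 and NEFL are high in all COLO320DM libraries, SYT1, PROX1, TUBB3 and GAD1 are high in all SW480 libraries, and most endocrine factors and granins sit at the left.

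The genes that were expressed split between the lines in opposite directions. With empty vector, 12 of the 30 tested genes were higher in COLO320DM, beside 34.3% of all genes tested, and 13 were lower, beside 37.3% of all genes (edgeR quasi-likelihood test, adjusted p under 0.05). Both counts are near what all genes gave, and are not a result about these genes. The sizes of the differences are a description: the median log2 fold change of COLO320DM over SW480 was −0.17 over the 30 genes and −0.04 over all genes, and the median absolute value was 2.95 against 0.86. At 16-fold or more, 8 genes were higher in COLO320DM (NEFL, UCHL1, INA, SNAP25, ELAVL3, RFX6, CPE and PCSK2), beside 4.81% of all genes. The 4 that were lower by as much were DDC, CPLX2, SYT1 and PROX1, beside 9.82% of all genes. Among the 8, RFX6, PCSK2, INA, ELAVL3 and NEFL had 1 to 3 counts in the 3 SW480 libraries together, so their ratios are given below with counting intervals. The same comparison in the 6 libraries with the HKDC1 plasmid called 12 genes higher and 13 lower, beside 33.5% and 37.4% of all genes. The genes not called with empty vector were CHGA, SCG3, SCG5, TPH1 and VAMP2, and without replicate 1 in any group the call was made for CHGA and VAMP2 too, for 27 genes in all, beside 79.3% of all genes tested.

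**Figure D2:**
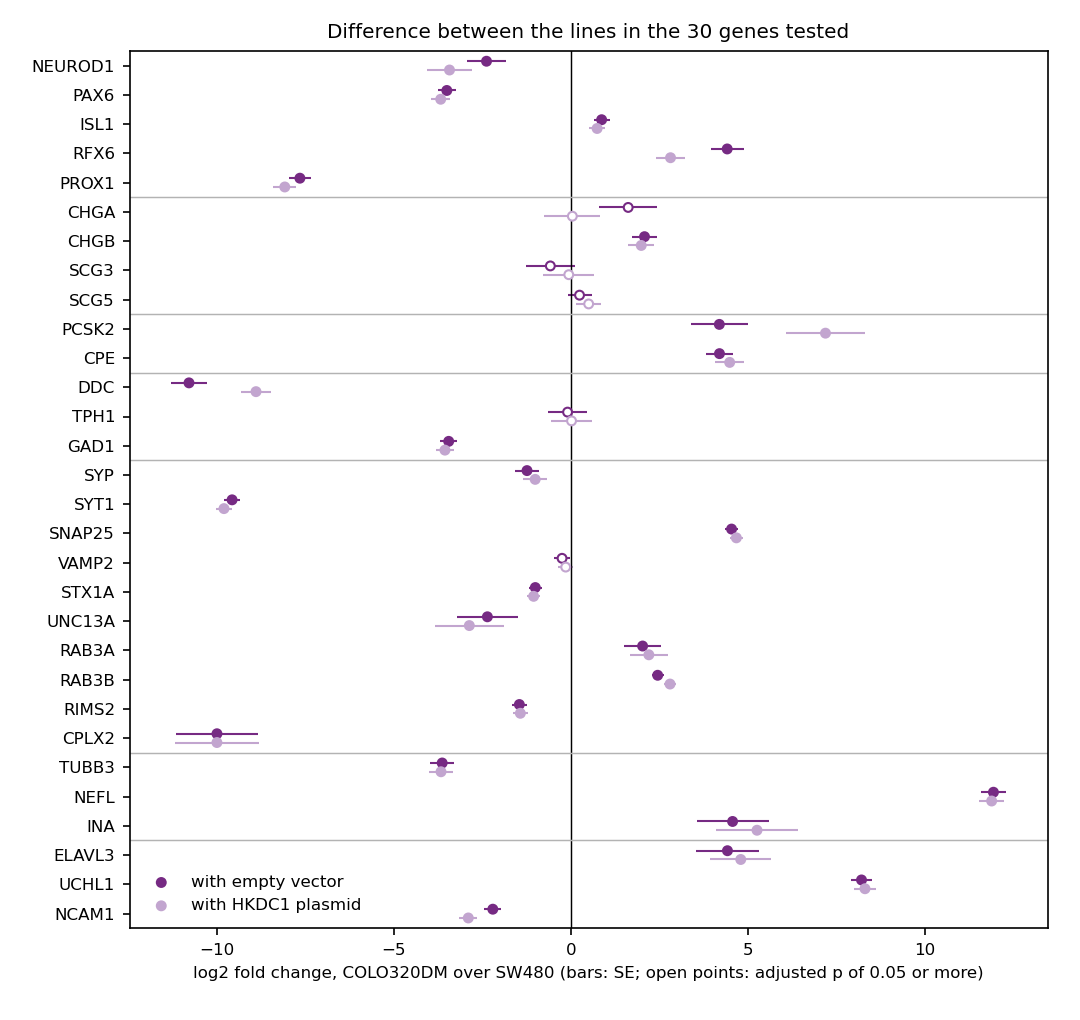
Log2 fold change of COLO320DM over SW480 for the 30 tested genes, with empty vector and with the HKDC1 plasmid; bars are standard errors, open points were not called, and grey lines separate the roles. NEFL and UCHL1 lie farthest to the right and DDC, CPLX2, SYT1 and PROX1 farthest to the left, with both plasmids; positions beyond a fitted value of about 7 to either side rest on counts at or near 0 in 1 line, except for UCHL1, SYT1 and PROX1.

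Upstream sequence is shown for 4 of the called genes, to set genes that are high in opposite lines side by side. CPE, the carboxypeptidase E gene, and RAB3B, a vesicle GTPase gene, were higher in COLO320DM; SYT1, the calcium sensor synaptotagmin 1, and SYP, the vesicle membrane protein synaptophysin, were higher in SW480. Each stretch is the part of the 250 bases before the RefSeq transcription start (GRCh38.p14) that no exon of GENCODE 29 covers, 5′ to 3′ on the gene's own strand, with CG dinucleotides in capitals. The CPE stretch is chr4:165378758-165378941 on the plus strand, RAB3B is chr1:51990765-51990950 on the minus strand, SYT1 is chr12:78864524-78864668 on the plus strand and SYP is chrX:49200260-49200443 on the minus strand.
CPE: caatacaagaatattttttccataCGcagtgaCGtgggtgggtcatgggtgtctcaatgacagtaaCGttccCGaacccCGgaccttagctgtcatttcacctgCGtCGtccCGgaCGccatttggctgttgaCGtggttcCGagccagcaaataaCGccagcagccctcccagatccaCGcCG
RAB3B: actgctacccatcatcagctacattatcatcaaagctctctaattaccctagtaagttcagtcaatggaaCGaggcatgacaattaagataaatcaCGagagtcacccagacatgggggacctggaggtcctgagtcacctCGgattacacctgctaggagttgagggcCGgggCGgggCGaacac
SYT1: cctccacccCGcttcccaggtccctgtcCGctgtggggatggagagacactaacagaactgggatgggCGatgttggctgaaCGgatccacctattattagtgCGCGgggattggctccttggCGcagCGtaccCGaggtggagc
SYP: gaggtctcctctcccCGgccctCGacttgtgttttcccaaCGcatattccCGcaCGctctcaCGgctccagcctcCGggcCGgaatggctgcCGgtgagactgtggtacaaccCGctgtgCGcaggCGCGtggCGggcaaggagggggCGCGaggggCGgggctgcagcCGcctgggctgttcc
The printed stretches hold 14, 6, 9 and 18 CG dinucleotides. The counted CPE and SYT1 genes begin farther upstream, at chr4:165361194 and chr12:78863993, so their stretches lie within the spans of those genes. Which transcription start these cells use was not tested.

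RefSeq upstream windows were found for 28 of the 41 genes, and 19 genes had a single window. The observed over expected number of CG dinucleotides, which corrects for base composition, had a median of 0.558 over all 35116 windows, and 47.49% of these windows were above 0.6. It ranged from 0.598 to 1.02 (median 0.889) in the 6 single windows of genes called higher in COLO320DM and from 0.298 to 1.03 (median 0.818) in the 7 of genes called lower. These ranges overlap. CPLX2 had the lowest value of the 7, at 0.298 with 6 CG dinucleotides, and SYT1 had 0.548 with 13. Searched on both strands, the cAMP response element core TGACGT was found in 3 of the 6 windows and 1 of the 7, against 7.1% of all windows, and CPE held 2 copies. Among the 6 single windows of genes not called or not tested it was found in 1, that of CHGA, also with 2 copies. The E-box CANNTG was found in 6 of 6 and 3 of 7, and in 6 of the 6 windows of genes not called or not tested, against 61.82% of all windows. The GC box GGGCGG was found in 4 of 6 and 5 of 7, and in 3 of the 6 not called or not tested, against 42.64%. CAGCACC and GGACAGC are the left and right parts of the REST site. The left part was found in 0 of 6 and 0 of 7, against 6.16% of all windows, and the right part in 0 of 6 and 1 of 7 (UNC13A), against 4.76%. Among the 6 windows of genes not called or not tested, the left part was found in 1 (SYT4) and the right part in 0. The TATA box TATAAA was found in 1 of 6 and 1 of 7, and in 0 of the 6 not called or not tested, against 10.72%. The motifs and the 4 genes shown were chosen after the values were seen, and an E-box can overlap other motifs. A match is a description of the letters in these windows, and methylation and factor binding were not measured.

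Among the transcription factors, 5 of 10 were tested, and 2 were higher and 3 lower in COLO320DM, beside 34.3% and 37.3% of all genes. PROX1, a homeobox factor of neuronal, endocrine and lymphatic development, had the widest difference. Its level in COLO320DM with empty vector was 1.04, 0.858 and 0.509 CPM, and in SW480 it was 230, 128 and 127 CPM. The SW480 libraries all exceed the COLO320DM libraries, with replicate 1 highest in SW480. The log2 fold change was −7.66 (SE 0.32, adjusted p = 1.55e-10, edgeR), and −8.08 with the HKDC1 plasmid. PAX6, a paired-box factor of eye, brain and endocrine cells, had 64, 50 and 43 counts in COLO320DM and 373, 596 and 732 in SW480 with empty vector. PAX6 had a log2 fold change of −3.51 (SE 0.26, adjusted p = 4.32e-08, edgeR). PAX6 shares 5241 exon bases with ELP4 on the opposite strand, and reads from such pairs cannot be told apart because the strand setting of the counting is not given in the sources used here.

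ISL1, a LIM homeobox factor of endocrine cells and motor neurons, had 2.90, 3.43 and 3.15 CPM in COLO320DM, against 2.23, 1.44 and 1.52 CPM in SW480 with empty vector. The groups do not overlap, and the log2 fold change was 0.87 (SE 0.23, adjusted p = 0.00372, edgeR), the smallest among the called genes of the list. RFX6, a winged-helix factor of endocrine differentiation, had 19, 27 and 30 counts in COLO320DM and 1 count in each SW480 library with empty vector, a ratio of 24.0 with a counting interval of 7.90 to 119. With the HKDC1 plasmid it had 58 counts in all against 8, and the ratio was 7.23 (3.44 to 17.5). NEUROD1, the basic helix-loop-helix factor of differentiated endocrine cells, was low in both lines, at 3, 4 and 5 counts in COLO320DM and 11, 24 and 26 in SW480 with empty vector. NEUROD1 had a log2 fold change of −2.38 (SE 0.55, adjusted p = 0.00158, edgeR). The called factors were thus PROX1, PAX6 and NEUROD1, higher in SW480, and ISL1 and RFX6, higher in COLO320DM. With 34.3% of all genes called higher and 37.3% lower in COLO320DM, this split is not a result about these factors.

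Granule cargo was low in both lines. CHGB, chromogranin B, had 53, 88 and 116 counts in COLO320DM and 15, 13 and 30 in SW480 with empty vector, and 55, 69 and 87 against 12, 25 and 17 with the HKDC1 plasmid. It was the only one of the 4 tested cargo genes to be called, with a log2 fold change of 2.08 (SE 0.37, adjusted p = 0.000193, edgeR). CHGA, chromogranin A, had 5, 23 and 15 counts in COLO320DM and 3, 5 and 5 in SW480 with empty vector. Scaled by library, these ranges overlap, at 0.118–0.548 and 0.0779–0.136 CPM. With the HKDC1 plasmid CHGA had 0, 10 and 15 counts against 6, 11 and 8. The log2 fold changes were 1.62 (adjusted p = 0.0906) and 0.04 (adjusted p = 0.966, edgeR), and the first was 1.84 (adjusted p = 0.00362) without replicate 1 and 1.59 (adjusted p = 0.033, edgeR) with replicate number as a block. SCG3, a granin that carries cargo into granules, had 8, 31 and 37 counts in COLO320DM against 9, 50 and 49 in SW480 (empty vector). SCG5, the chaperone of PCSK2, had 35, 61 and 38 counts against 22, 43 and 42. Both overlap between the lines, and neither was called.

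The processing enzymes diverged. CPE stood at 53.8, 58.1 and 57.3 CPM in COLO320DM with empty vector. The HKDC1 plasmid libraries of that line stood at 53.2, 59.3 and 59.0 CPM. In SW480 it stood at 1.14, 3.71 and 4.31 CPM, and 1.11, 3.67 and 2.81 CPM. Every COLO320DM library lies far above every SW480 library, and replicate 1 is the lowest in SW480 with either plasmid. The log2 fold change was 4.20 (SE 0.39, adjusted p = 5.18e-07, edgeR) and 3.83 without replicate 1. Per gene length, CPE ranked 2988th of 35313 genes with counts in COLO320DM and 15744th of 35741 in SW480 with empty vector. The proteases that act before CPE were nearly silent: PCSK2 had 12, 14 and 20 counts in COLO320DM and 0, 2 and 0 in SW480 with empty vector, a ratio of 21.8 with a counting interval of 5.69 to 185. PCSK1 had 0 to 2 counts in COLO320DM and 6 to 11 in SW480 over both plasmids, and did not pass the filter.

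In transmitter synthesis, DDC, the decarboxylase that makes serotonin and dopamine from their precursors, had 0 counts in the 3 COLO320DM libraries with empty vector and 188, 201 and 297 in SW480. With a floor of 3 counts over the COLO320DM group, it was at least 242-fold higher in SW480. With the HKDC1 plasmid, COLO320DM had 1 count in 1 library and SW480 had 218, 241 and 185. GAD1, which makes GABA from glutamate, stood at 2.26, 3.43 and 2.64 CPM in COLO320DM, against 41.5, 24.1 and 25.6 CPM in SW480, and its log2 fold change was −3.45 (SE 0.24, adjusted p = 2.62e-08, edgeR). GAD1 shares 611 exon bases with an antisense gene that had 1158 counts in the 12 libraries, against 7842 for GAD1. TPH1, the first enzyme of serotonin synthesis, had 16, 15 and 8 counts in COLO320DM against 24, 7 and 8 in SW480 (empty vector), with overlap between the lines. Its log2 fold change was −0.09 (SE 0.55, adjusted p = 0.885, edgeR), and it was 0.55 (adjusted p = 0.404) without replicate 1.

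Of the 11 exocytosis genes, 10 were tested, and 3 were higher and 6 lower in COLO320DM, beside 34.3% and 37.3% of all genes. SYT1 stood at 168.5, 172.7 and 166.9 CPM in SW480 with empty vector and 174.3, 152 and 138.7 CPM with HKDC1. The COLO320DM libraries had 9, 9 and 10 counts and 6, 11 and 2 counts. The log2 fold change was −9.57 (SE 0.22, adjusted p = 1.05e-12, edgeR), a count ratio of 771 with a counting interval of 533 to 1160. CPLX2, complexin 2, which clamps and primes the fusion complex, had 0 counts in all 6 COLO320DM libraries. In SW480 with empty vector it had 69, 144 and 184 counts, at least 140-fold higher. With the HKDC1 plasmid SW480 had 41, 164 and 160 counts, at least 122-fold higher. In SW480, replicate 1 of CPLX2 is the lowest library with either plasmid.

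SNAP25, the membrane-bound partner of the fusion complex, went the other way. It stood at 33.5, 29.2 and 31.0 CPM in COLO320DM, against 1.04, 1.58 and 1.41 CPM in SW480 with empty vector, and the HKDC1 plasmid groups lay within 28.9–34.1 and 0.853–1.44 CPM. The log2 fold change was 4.54 (SE 0.19, adjusted p = 1.43e-10, edgeR). RAB3B stood at 9.64, 8.70 and 7.50 CPM in COLO320DM, against 1.40, 1.85 and 1.47 CPM in SW480, a log2 fold change of 2.45 (SE 0.17, adjusted p = 2.53e-08, edgeR). RAB3A, the main RAB3 GTPase of synaptic vesicles, had 423, 743 and 780 counts in COLO320DM and 297, 62 and 85 in SW480 with empty vector. Replicate 1 is the lowest RAB3A library in COLO320DM and the highest in SW480, and the log2 fold change was 2.03 (SE 0.53, adjusted p = 0.0037, edgeR) with replicate 1, 3.08 without that SW480 library and 3.31 without replicate 1 in any group. RAB3A shares 165 exon bases with MPV17L2 on the opposite strand.

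VAMP2, the vesicle partner of the fusion complex, was not called, and its groups overlap, at 21.5, 25.5 and 25.6 CPM in COLO320DM, against 20.1, 33.5 and 32.7 CPM in SW480 with empty vector. Its log2 fold change was −0.25 (SE 0.21, adjusted p = 0.309, edgeR). Without the SW480 library of replicate 1 it was −0.46 (adjusted p = 0.0376), and without replicate 1 in any group −0.39 (adjusted p = 3.97e-05). STX1A, syntaxin 1A, had 181, 277 and 238 counts against 425, 406 and 491, and its log2 fold change was −1.01 (SE 0.18, adjusted p = 0.00023, edgeR). It shares 662 exon bases with BUD23 on the opposite strand, which had 48872 counts in the 12 libraries against 3635 for STX1A. SYP had 65, 89 and 106 counts in COLO320DM and 106, 217 and 262 in SW480 with empty vector. Scaled by library, the groups do not overlap, at 1.53–2.45 and 2.75–5.91 CPM. The log2 fold change of SYP was −1.24 (SE 0.33, adjusted p = 0.0041, edgeR).

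RIMS2, a scaffold of the release site, stood at 1.30, 1.95 and 1.85 CPM in COLO320DM, against 3.69, 5.86 and 4.49 CPM in SW480 with empty vector, a log2 fold change of −1.46 (SE 0.21, adjusted p = 2.85e-05, edgeR). UNC13A, which primes vesicles, had 1, 19 and 15 counts in COLO320DM and 12, 77 and 84 in SW480, with ranges that overlap through replicate 1 of SW480. Its log2 fold change of −2.36 had an adjusted p of 0.0247 (edgeR), which rose to 0.0607 with DESeq2, 0.0649 with limma-voom and 0.111 without the count filter. The call was also lost without COLO320DM replicate 1 (−1.82, adjusted p = 0.0855) or replicate 3 (−2.56, 0.0543), or SW480 replicate 2 (−2.00, 0.0884) or replicate 3 (−2.13, 0.0759). Without replicate 1 in any group it was −2.30 (adjusted p = 1.95e-08). SYT4, another synaptotagmin, reached at most 11 counts in any library.

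Shares within 13 pairs of related genes were computed per gene length with empty vector. The pairs were chosen after values were seen, so the shares are descriptions with no test. The ranges of the lines did not overlap in 7 pairs and overlapped in 6. SNAP25 made up 52.1–54.8% of SNAP25 and SNAP23 together in COLO320DM with empty vector and 5.55–6.91% in SW480, while SNAP23 itself stood at 8.07 ± 0.948 and 6.12 ± 0.773 RPKM (CPM per kilobase of exon; SD, n = 3). VAMP2 made up 92.1–94.0% of VAMP2 and VAMP8 in COLO320DM and 10.7–17.9% in SW480, and VAMP8 stood at 0.542 ± 0.126 and 48.95 ± 2.43 RPKM. SYT1 made up 18.1–35.4% of SYT1 and SYT7 in COLO320DM, where both were low, and 82.6–87.8% in SW480. RAB27A made up 31.2–36.8% of RAB27A and RAB27B in COLO320DM and 98.7–99.8% in SW480. In these 4 pairs the ranges of the lines do not overlap. They overlap for VAMP2 with VAMP3, at 30.48–37.22% in COLO320DM against 19.03–30.92% in SW480, for RAB3A with RAB3B, at 88.1–94.5% against 86.7–97.5%, and for RAB3A with RAB3D, at 45.9–58.4% against 37.3–76.2%.

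**Figure D3:**
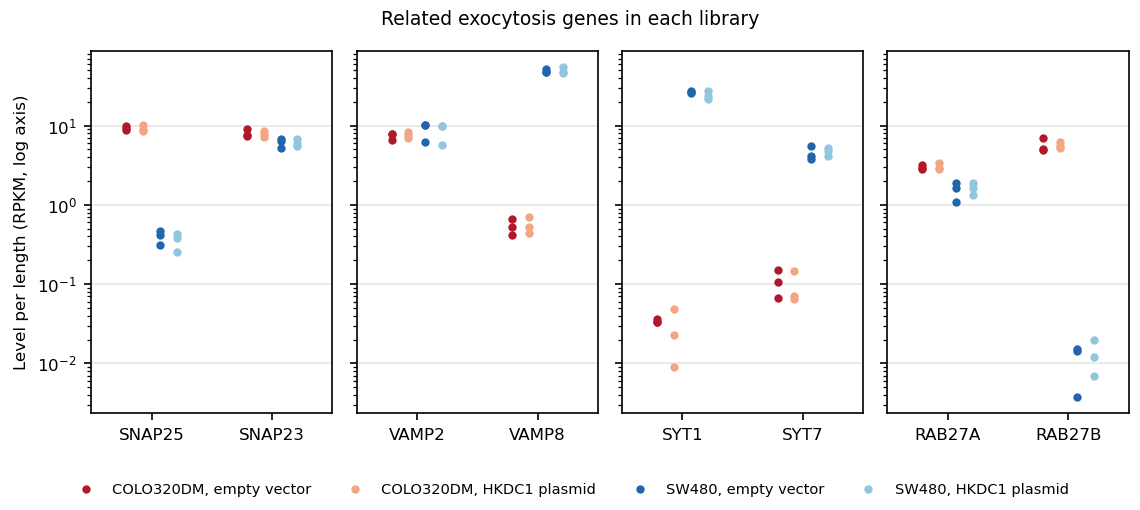
Level per gene length (RPKM, log axis) of 4 pairs of related exocytosis genes, 1 point per library in the 4 groups of 3. SNAP25 and RAB27B are higher in all COLO320DM libraries and VAMP8, SYT1 and SYT7 in all SW480 libraries, while SNAP23 and VAMP2 lie within a narrow range in both lines.

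Among the cytoskeletal genes, NEFL, the light neurofilament subunit, had 1613, 2118 and 2005 counts in COLO320DM with empty vector and 0, 1 and 0 in SW480. With the HKDC1 plasmid it had 1625, 1717 and 1754 counts against 1, 0 and 0. The count ratios were 5430 (counting interval 974 to 214000) and 5080 (912 to 201000). NEFL was not accompanied by its partner subunit NEFM, which lies beside it on chromosome 8 and was at 0. INA, an internexin that also assembles into neurofilaments, had 3, 26 and 30 counts in COLO320DM and 0, 0 and 2 in SW480 with empty vector, a ratio of 27.9 (7.39 to 236). TUBB3, the neuronal beta tubulin, was high in the other line, at 3.63, 7.79 and 7.94 CPM in COLO320DM, against 109, 63.1 and 68.7 CPM in SW480. For TUBB3 the log2 fold change was −3.64 (SE 0.33, adjusted p = 4.30e-07, edgeR), and −3.08 without replicate 1. TUBB3 shares 1584 exon bases on the same strand with a readthrough gene, which had 22027 counts in the 12 libraries against 20152 for TUBB3, so how the counting split these reads is not known. STMN2, a microtubule regulator of growing axons, had 0 to 4 counts.

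UCHL1, the neuronal ubiquitin hydrolase PGP9.5 that is used to stain nerve and neuroendocrine cells, had the highest level of the list. It stood at 455, 473 and 504 CPM in COLO320DM with empty vector. The HKDC1 plasmid libraries stood at 491, 493 and 469.7 CPM. In SW480 it stood at 0.804, 2.098 and 1.913 CPM, and 0.910, 2.104 and 1.517 CPM. The log2 fold change was 8.21 (SE 0.30, adjusted p = 5.42e-11, edgeR), and 7.92 without replicate 1. Per gene length it ranked 190th in COLO320DM and 16767th in SW480 with empty vector. NCAM1, the adhesion molecule CD56, had 19, 22 and 26 counts in COLO320DM and 107, 63 and 127 in SW480, and its log2 fold change was −2.21 (SE 0.24, adjusted p = 2.38e-06, edgeR). ELAVL3, a neuronal RNA-binding protein, had 7, 14 and 10 counts in COLO320DM and 1, 0 and 0 in SW480, a ratio of 29.3 (4.89 to 1200), and its relative ELAVL4 had 0 to 2 counts in every library. Exon bases are also shared on the same strand by VAMP2 (403), TPH1 (285), ELAVL3 (256), NEUROD1 (236) and RIMS2 (221) with other annotated genes. The gene overlapping TPH1 had 6696 counts in the 12 libraries against 141 for TPH1, and that overlapping ELAVL3 had 502 against 70. Others of the list share exon bases on the opposite strand, such as NEFL (490). The split of reads in all these genes is uncertain too.

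Other genes of these pathways, from lists chosen with earlier results of these data known, are given for the libraries with empty vector. The counts below stand beside 34.3% of all genes higher and 37.3% lower, and nothing particular to a list is read from them. Of 17 other endocrine transcription factors, 11 were tested, 4 were higher and 5 lower in COLO320DM. FOXA2, a pioneer factor of gut and endocrine cells, was at 0 in all 6 COLO320DM libraries and had 453 to 640 counts in SW480 with empty vector, at least 583-fold higher. MYT1, a zinc finger factor of endocrine and neural progenitors, stood at 7.13 ± 1.43 CPM in COLO320DM and 159 ± 40 in SW480. HES6 stood at 25.9 ± 4.74 and 55.7 ± 3.57 CPM, and SOX4 at 105 ± 3.87 and 100.7 ± 6.19 CPM, with an adjusted p of 0.503 (edgeR). LMX1A, a factor of serotonin-producing cells that was singled out after its values were seen, had 89, 115 and 99 counts in COLO320DM and 1, 0 and 0 in SW480, a ratio of 287 (51.1 to 11400).

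Of 24 other granule and exocytosis genes, 20 were tested, 8 were higher and 11 lower in COLO320DM. PAM, which amidates peptide hormones, stood at 118 ± 7.24 and 358 ± 107 CPM. SV2A, a vesicle glycoprotein, stood at 133 ± 8.10 and 6.47 ± 2.59 CPM. PTPRN2, a phosphatase-like protein of the granule membrane that was also singled out after its values were seen, had 1, 0 and 0 counts in COLO320DM and 3235, 4617 and 5466 in SW480 with empty vector. Of 17 other cytoskeletal and ELAV genes, 14 were tested, 5 were higher and 6 lower, with log2 fold changes of 0.40 (adjusted p = 0.0791, edgeR) for STMN1, 1.12 (5.8e-06) for TUBA1A and 0.47 (0.00524) for DPYSL3. Of 13 widely expressed exocytosis genes all were tested, 5 were higher and 5 lower, with 0.21 (adjusted p = 0.0779, edgeR) for VAMP7, −0.81 (3.53e-06) for VAMP3 and −0.47 (0.00066) for STX3. Of 11 genes of the REST repressor complex, 3 were higher and 5 lower, with a median absolute log2 fold change of 0.38, and HDAC2, KDM1A and HDAC1 had 0.23, 0.37 and −0.10. REST itself was present in both lines, at 77.2 ± 5.76 CPM in COLO320DM and 53.2 ± 3.60 in SW480, with a log2 fold change of 0.54 (adjusted p = 0.000191, edgeR). SLC18A1 and FEV were at 0 in both lines.

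Markers of other cell types are given for the libraries with empty vector. Their called counts stand beside 34.3% of all genes higher and 37.3% lower in COLO320DM, and nothing particular to these markers is read from them. The 6 leukocyte markers summed to 38.7–41.9 CPM in COLO320DM and 1.71–2.29 in SW480 with empty vector, of which 2 of 5 tested were higher and 2 lower in COLO320DM. PTPRC, the leukocyte antigen CD45, had 1529 to 1609 counts in COLO320DM and 0 to 3 in SW480, and HLA-DRA was at 0 in COLO320DM. The 6 fibroblast markers summed to 39.9–63.6 CPM in COLO320DM and 19.1–20.2 in SW480, with 3 of 4 tested higher, 1 lower (LUM, 77 counts against 1889) and DCN at 0 in COLO320DM with empty vector. The 6 goblet cell markers summed to at most 0.143 CPM in COLO320DM with empty vector and 9.61–14.04 in SW480, with MUC2 and TFF3 at 0 in COLO320DM. The 5 glial markers summed to 1.37–1.55 CPM in COLO320DM against 0.9896–1.20 in SW480, and 1 was tested and higher. The 5 tuft cell markers summed to 1.88–2.90 CPM against 3.79–4.27, without overlap, and 2 of 3 tested were lower in COLO320DM. The part of these markers in the differences above was not tested.

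No effect of the HKDC1 plasmid passed the test in these genes in either line. Some of the 30 genes are nearly absent from 1 line, and their counts there carry little information, so results are also given over the genes with at least 10 counts in a library of the line, a limit chosen after the values were seen. These were 27 in COLO320DM and 25 in SW480. In COLO320DM, 0 genes were called, beside 0.00844% of all genes, and 0 were called with replicate number as a block, beside 0.076%. In SW480 the count was also 0 without and with the block, beside 0.0127% and 0.76% of all genes. At an unadjusted p under 0.05, edgeR gave 0 of the 27 and 0 of the 25 genes without the block, and 0 and 3 with it. For the difference between the lines, over 22 genes with at least 10 counts in a library of each line, it gave 0 without the block and 1 with it. The share of all genes at that threshold was not computed, so these counts are not read as a result about the genes. DESeq2 and limma-voom called 0 at an adjusted p under 0.05. The difference between the lines in the plasmid effect was called for 0 genes without and with the block, beside 0.00844% and 0.0422% of all genes. Over the genes with at least 10 counts in a library of the line, the median absolute log2 fold change was 0.06 for the 27 and 0.08 for all 21205 in COLO320DM, and 0.15 for the 25 and 0.09 for all 22126 in SW480.

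For UCHL1 in COLO320DM the log2 fold change of HKDC1 plasmid over empty vector was 0.02 (SE 0.21), for NEFL 0.04 (SE 0.15), for SNAP25 −0.02 (SE 0.15) and for CPE 0.02 (SE 0.33). In SW480 it was −0.13 (SE 0.13) for SYT1, 0.22 (SE 0.22) for PROX1, 0.03 (SE 0.29) for TUBB3 and 0.08 (SE 0.21) for GAD1. With replicate number as a block these standard errors were smaller, at 0.055 for UCHL1, 0.075 for NEFL and SNAP25 and 0.071 for CPE in COLO320DM, and 0.063 for SYT1, 0.072 for PROX1, 0.065 for TUBB3 and 0.081 for GAD1 in SW480. The smallest p-values without the block belonged to low genes. In COLO320DM these were NCAM1, with 19, 22 and 26 counts against 14, 17 and 14 with the HKDC1 plasmid (log2 fold change −0.37, adjusted p = 1, edgeR), and DDC, whose value rests on 1 count. In SW480 they were RFX6, with 1 count per library against 2, 3 and 3 (1.42, adjusted p = 1, edgeR), and RAB3B, with 54, 68 and 67 counts against 45, 47 and 49 (−0.30, adjusted p = 1, edgeR).

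**Figure D4:**
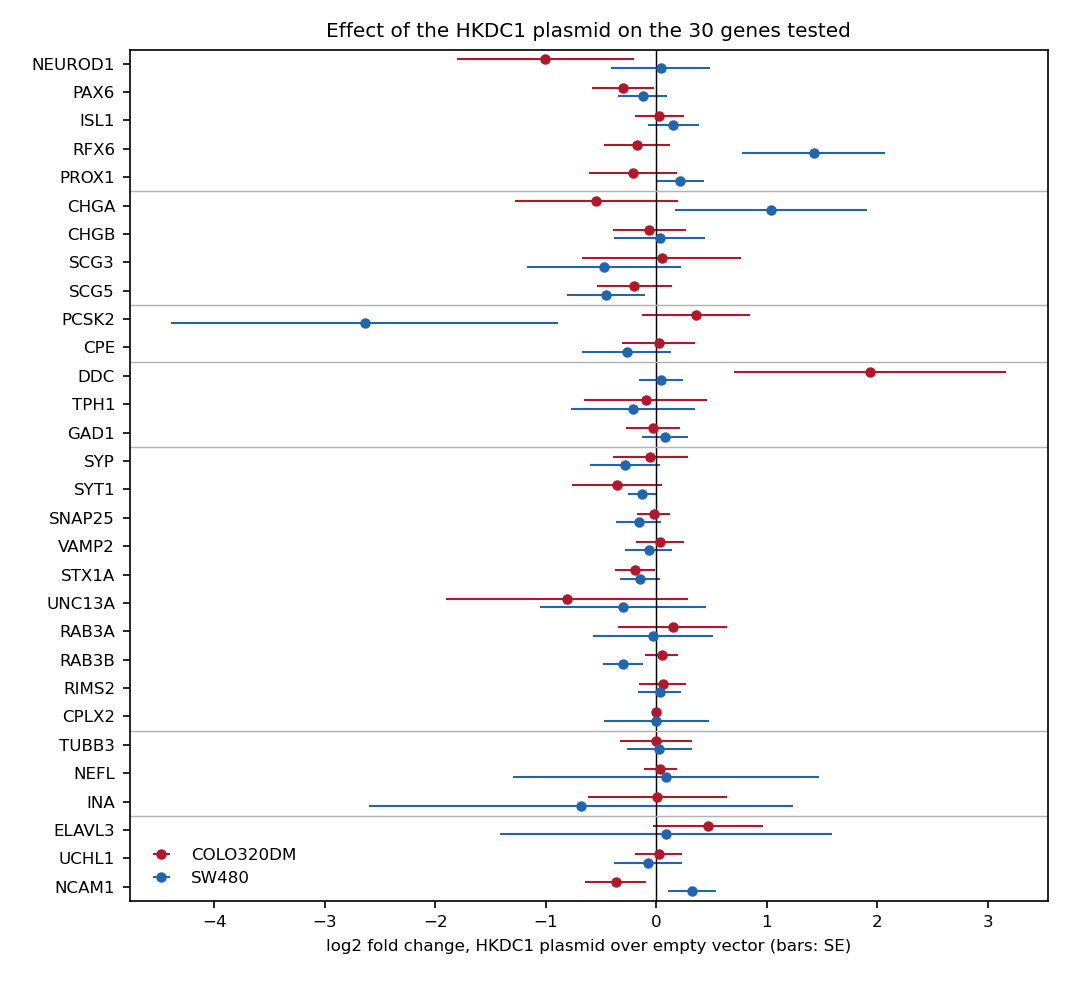
Log2 fold change of HKDC1 plasmid over empty vector for the 30 tested genes in each line, with standard errors as bars. The well-expressed genes lie close to 0 in both lines, and the widest bars belong to genes at or near 0 counts in that line, such as PCSK2, NEFL, INA and ELAVL3 in SW480 and DDC in COLO320DM.

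Replicate 1 stood apart for many genes, in the list and outside it. Within COLO320DM, both replicate 1 libraries lay above all 4 others for 3 of the 30 genes, beside 20.5% of all genes, and below them for 16, beside 21.3%. Within SW480 the counts were 6 above, beside 27.1% of all genes, and 11 below, beside 28.4%. The SW480 counts are near what all genes gave, and are not a result about these genes. In SW480, log2 of replicate 1 over replicates 2 and 3 was 1.69 for RAB3A and 0.64 for TUBB3, and −1.60 for CPE, −1.43 for CPLX2, −1.07 for UCHL1, −1.84 for SCG3 and −2.13 for UNC13A. In COLO320DM it was −0.70 for RAB3A, −0.96 for TUBB3, −1.52 for SCG3 and −1.91 for UNC13A. SCG3, SCG5, SYP, VAMP2, UNC13A and CPE were thus low in replicate 1 of both lines, while RAB3A and TUBB3 were low in COLO320DM and high in SW480. The mitochondrial share of counts was 8.91–9.40% in COLO320DM replicate 1 against 7.59–7.80% in the other COLO320DM libraries, and 7.17–7.41% against 6.32–6.48% in SW480. The labels name no batch, and the part of depth, batch or RNA quality in this difference was not tested.

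**Figure D5:**
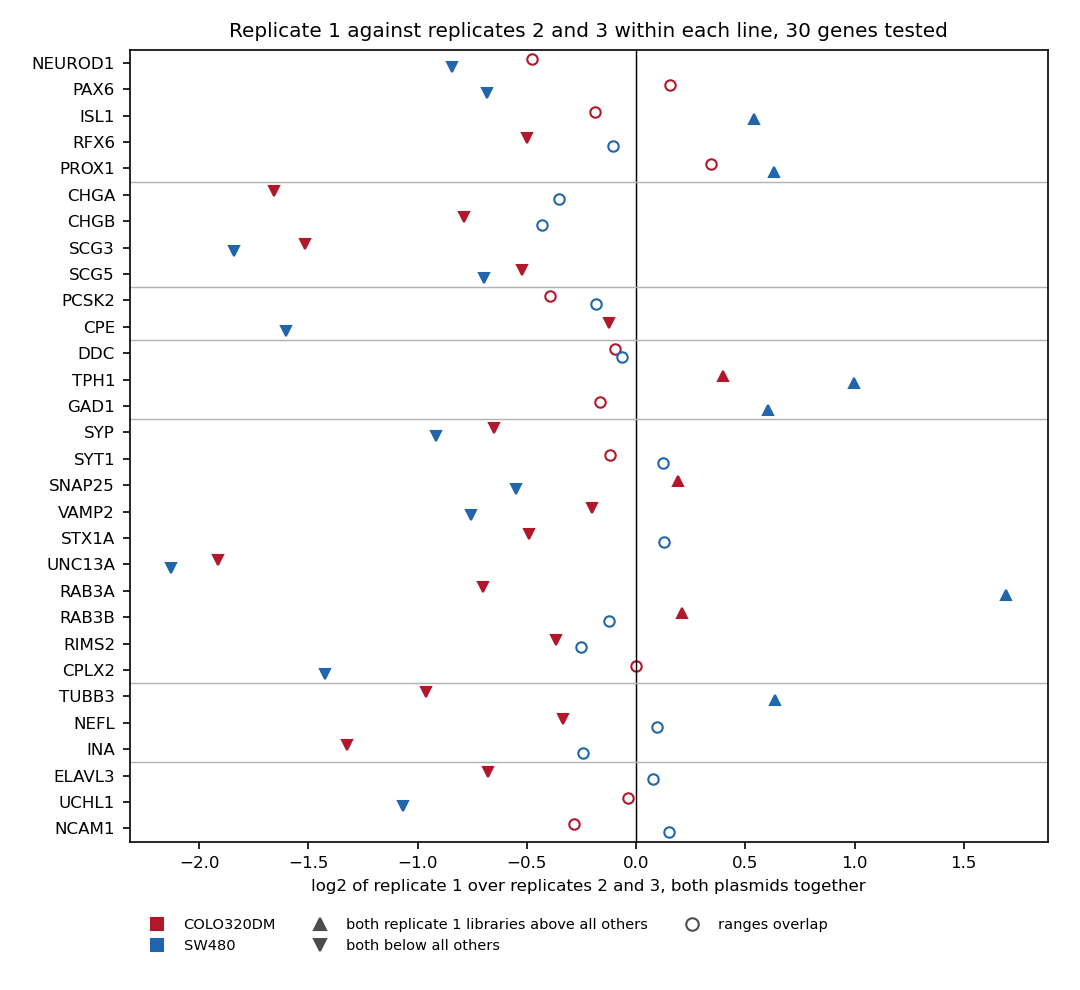
Log2 of the mean CPM (with 0.1 added) of the replicate 1 libraries over that of replicates 2 and 3, both plasmids together, for the 30 tested genes in each line; filled triangles mark genes whose replicate 1 libraries lie wholly above or below the other 4, and open circles mark overlap. In COLO320DM 16 genes point down and 3 up, and in SW480 11 point down and 6 up.

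Without replicate 1 in any group, a setting added after the data were seen, 2 of 30 genes were called for the HKDC1 plasmid in SW480, beside 3.03% of all genes tested. PROX1 had a log2 fold change of 0.38 (SE 0.07, adjusted p = 0.000443, edgeR), from 4713 and 5783 counts (empty vector) to 6519 and 6187 (HKDC1). Scaled by library, its level was 128 and 127 CPM against 159.5 and 177 CPM, so the groups of replicates 2 and 3 do not overlap, while replicate 1 was 230 and 228 CPM. SYT1 had −0.24 (SE 0.07, adjusted p = 0.0459, edgeR), at 172.7 and 166.9 CPM against 152 and 138.7 CPM, while its replicate 1 went from 168.5 to 174.3 CPM. With replicate number as a block and all replicates kept, PROX1 had 0.26 (SE 0.07, adjusted p = 0.107, edgeR) and SYT1 −0.13 (SE 0.06, adjusted p = 0.469), and neither was called. The values without replicate 1 rest on 2 libraries against 2.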

How the data were processed

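The values are raw read counts per gene that the authors deposited for 12 libraries of poly-A RNA. Per the submitters' processing notes, the tools were HISAT2 2.1.0 and limma, with GRCh38 as the build, while the counting tool, its strand setting and the annotation release are not given in the sources used here. Counts were fitted for all 12 libraries together with edgeR 4.0.16 (R 4.3.3) quasi-likelihood tests on 4 group means, after filterByExpr (minimum count 10, minimum total 15) and TMM scaling, with Benjamini-Hochberg adjustment over 23684 genes and a threshold of 0.05. CPM and RPKM were computed here from the counts with TMM-scaled library totals and the deposited exon lengths. Where a group had 0 counts, a bound was computed with 3 counts over the group, and where it had 1 to 3, the count ratio is given with an exact 95% interval that covers counting error only.

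The 41 genes and the lists were chosen with earlier results of these data known. By the rule for naming, genes with a mean of at least 1 CPM in a group are given by library; here this was done for all 30 tested genes, and the other 11 are given by ranges. Genes of the other lists are given by the 3 of highest mean CPM and those at 0 in a line. Some genes of these lists are not reported here. Genes named outside this rule, the gene pairs, the motifs and the setting without replicate 1 were chosen after values were seen. Overlaps come from the exon positions deposited with the counts, and the types of the overlapping genes from GENCODE 29. Same-numbered libraries within a line deviated together (r of 0.387 to 0.702 in COLO320DM and 0.542 to 0.9 in SW480). These r were taken over genes with a mean of at least 100 counts. They set replicate 1 apart, but replicates 2 and 3 were not told apart by number. For empty vector replicate 3 with HKDC1 plasmid replicate 2, r was 0.757 in SW480 and 0.391 in COLO320DM. Between the lines, same-numbered r was 0.219 to 0.249 with empty vector, against at most 0.163 for different numbers. With the HKDC1 plasmid it was 0.086 to 0.234, against at most 0.189 for different numbers. Printed values come from the fit without a replicate block unless the block is named. Alternatives were other scalings, no filter, DESeq2 1.42.0, limma-voom (limma 3.58.1), a replicate block, fits to the compared groups alone and leaving out each library.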

Additional observations from a re-analysis of the deposited data

How the results depend on the processing

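The number of the 30 genes called between the lines with empty vector was 25, and lay between 24 and 26 when each library was left out in turn and between 23 and 27 under the other settings; with the HKDC1 plasmid it was also 25, with ranges of 23 to 25 and 24 to 27. With the replicate block it was 26 and 25. With empty vector, the block added CHGA (1.59, adjusted p = 0.033, edgeR) and changed no other call. In the fit without a block, 34.3% of all genes were called higher and 37.3% lower with empty vector. With the HKDC1 plasmid these shares were 33.5% and 37.4%. Without replicate 1 in all groups, 79.3% and 78.5% of all genes were called in the 2 comparisons. Shares under the other settings are not given here, and the numbers called are not a result about these genes. Between the lines, same-numbered libraries had the highest r for every number with empty vector. With the HKDC1 plasmid this held for replicates 1 and 3 but not for replicate 2. The number called for the HKDC1 plasmid stayed at 0 with the replicate block and under every other setting run, except for 2 in SW480 without replicate 1 in all groups. The direction turned for genes that were not called: SCG5 (0.24) lay between −0.056 and 0.474 over the settings that left out 1 library, and was below 0 without COLO320DM empty vector replicate 2, and TPH1 (−0.09) was 0.011 with library totals, 0.085 with limma-voom and 0.547 without replicate 1 in all groups. Over the settings that left out 1 library TPH1 lay between −0.407 and 0.724, with values above 0 without COLO320DM empty vector replicate 3 (0.169) or SW480 empty vector replicate 1 (0.724). CHGA was called without COLO320DM empty vector replicate 1 (2.02, adjusted p = 0.0436, edgeR). With the HKDC1 plasmid, UNC13A was not called in 4 settings (adjusted p 0.0508 to 0.0893, edgeR) and SYP in 2 (0.0703 and 0.074). Low counts set the size of some called values: without 1 SW480 empty vector library, PCSK2 was 6.84 or 3.60, NEFL 13.79, INA 7.17 and ELAVL3 6.27. The cause of these shifts was not tested.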

Other observations

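Among the other granule genes, VGF, a granin-like neuropeptide precursor, was the one called for the HKDC1 plasmid in SW480 with the replicate block, and it is named because it was called. Its counts were 109, 302 and 292 in the empty vector libraries, against 95, 177 and 142 in those with HKDC1. Its log2 fold change was −0.60 (SE 0.15, adjusted p = 0.048, edgeR) with the block and −0.65 (SE 0.37, adjusted p = 1) without it. In COLO320DM, VGF had 9 to 26 counts per library and was not called. Between the lines with empty vector its log2 fold change was −3.88 (SE 0.45, adjusted p = 4.41e-06, edgeR).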
